A study of Mus musculus with 4 samples.

Results

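Glutamate released at synapses is cleared mainly by astrocytes, the star-shaped glia of the brain. The cells take it up together with sodium ions, convert it to glutamine with glutamine synthetase, and hand the glutamine back to neurons, which remake glutamate or GABA from it. The sodium pump, Na+,K+-ATPase, restores the ion gradients on which uptake and glutamine export run. In the subventricular zone, the neural stem cells are themselves astrocyte-like, whereas the neuroblasts they give rise to are young migrating neurons.

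Followed here are 6 genes of this cycle and of related amino acid exchange, among the 15305 gene rows of the count table. Slc1a2 encodes the glutamate transporter GLT-1 and Slc1a3 the glutamate transporter GLAST. Glul encodes glutamine synthetase. Slc38a3 encodes a sodium-coupled transporter through which glutamine leaves astrocytes, and Slc7a10 an exchanger of small neutral amino acids, among them glycine and D-serine. Atp1b2 encodes a glial beta subunit of the sodium pump. The genes were chosen by their measured counts in these same cells, and the cell classes below come from 2 measured genes, so no value is a test of that choice. Cells are not replicates and each sort was made once, so all comparisons are descriptions and no p-value is given.

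The cells were 82 single cells of the subventricular zone and striatum. The mice carried Penk-Cre and the Ai9 reporter, were labelled wild type, and their age is not given in the sources used here. Cells in which Penk drives Cre start to make the red protein tdTomato and keep this mark for life, so a sorted cell need not make Penk when it is collected. Dataset A held 41 reporter-positive cells from which CD11b-positive cells had been left out, and dataset B held 41 reporter-positive cells taken without that stain. CD11b is a surface protein of microglia, the brain's resident macrophages. All cells of dataset A lay on 1 plate, and those of dataset B on 4 plates named P1, P2, P3 and PL4. In each dataset the labels name neuroblasts and quiescent neural stem cells, but the columns carry only dataset, plate and well, so no cell was assigned to either label. Penk itself reached 10 counts in 9 of the 82 cells.

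Cells were divided by the choroid plexus gene Enpp2 and the neuroblast gene Sox11. Enpp2 made up 1% or more of the counts in 32 cells, and Sox11 reached 10 counts in 43 cells. The 2 cells that met both rules were kept apart, which left 30 Enpp2-rich cells (14 in dataset A, 16 in dataset B) and 41 Sox11 cells (16 and 25). Neither rule was met by 9 cells. The cells of both rules and of neither rule were all of dataset A. The Enpp2 shares nearest to the threshold were 1.25% in well H4 of plate P1 inside it and 0.999% in well H6 of dataset A outside it. For Sox11 they were 20 counts inside and 7 counts outside. Well H6 was counted as a Sox11 cell although Ttr, a choroid plexus gene, made up 78.2% of its counts.

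Depth ranged from 530630 to 7765650 counts per cell, with medians of 1942926 in dataset A and 2135576 in dataset B, and each cell had a count for 784 to 4197 genes. No cells had identical counts. Enpp2-rich cells held 6 to 13 of 14 choroid plexus epithelium genes at 10 or more counts, and Sox11 cells held 3 to 17 of 18 neuroblast genes. The Sox11 cell with 3 neuroblast genes, well G7, carried microglia genes at a summed level of 29127 CPM (counts scaled to 1000000 per cell). Among the 9 cells of neither class, the number of astroglia genes at 10 or more counts ran from 0 to 18 of 20. One of these 9 cells, well F12, carried 428941 CPM of oligodendrocyte-lineage genes and none of the 6 genes at 10 or more counts.

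The genes lie on 6 chromosomes. In GRCm39 with the GENCODE vM39 annotation, Slc1a2 spans chr2:102488574-102621129 on the plus strand and Slc1a3 chr15:8663604-8741595 on the minus strand. Glul spans chr1:153775690-153785469 (plus), Slc38a3 chr9:107527815-107547018 (minus), Slc7a10 chr7:34885666-34906995 (plus) and Atp1b2 chr11:69487651-69496851 (minus). Exons of Slc7a10 overlap exons of Lrp3 on the opposite strand, and the sources used here do not state that counting used strand. Lrp3 had counts in some Slc7a10 cells (10 or more in 2 of 14) but none in any Enpp2-rich cell. Exons of Slc1a2, Slc1a3 and Glul overlap genes that are not analysed here.

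RefSeq promoter sequence was at hand for 4 of the 6 genes. The 250 bases before the RefSeq start of Slc7a10 and Slc1a3 are shown because these 2 genes were present together in the cells richest in the set and were never together at 10 or more counts in any other cell. Capitals mark 3 short motifs searched on both strands: the GC box GGGCGG, the CCAAT box CCAAT and the TATA box TATAAA. The windows are chr7:35186135-35186384 on the plus strand for Slc7a10 and chr15:8710808-8711057 on the minus strand for Slc1a3, in GRCm38.p6, written 5′ to 3′ in the direction of the gene.
Slc7a10: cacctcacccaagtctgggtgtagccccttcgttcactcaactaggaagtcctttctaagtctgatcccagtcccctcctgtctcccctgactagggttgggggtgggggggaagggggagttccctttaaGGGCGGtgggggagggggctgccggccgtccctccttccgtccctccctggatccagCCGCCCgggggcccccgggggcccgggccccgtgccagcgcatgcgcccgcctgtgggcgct
Slc1a3: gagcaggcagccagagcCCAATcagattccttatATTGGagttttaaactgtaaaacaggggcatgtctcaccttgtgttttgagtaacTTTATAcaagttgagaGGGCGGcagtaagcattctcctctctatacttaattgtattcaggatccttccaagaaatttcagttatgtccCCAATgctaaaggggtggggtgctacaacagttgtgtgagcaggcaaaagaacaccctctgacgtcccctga
The Slc7a10 window held 69.6% G and C bases, 14 CpG and 2 GC boxes. The Slc1a3 window held 44.8% G and C, 2 CpG, 1 GC box, 3 CCAAT boxes and 1 TATA box. Over 32851 promoter windows of the same length, the median was 52.4% G and C and 6 CpG, and 32.7% held a GC box, 33.8% a CCAAT box and 12.4% a TATA box. The Glul window (64.8% G and C, 15 CpG) resembled that of Slc7a10 in base composition, and the Slc1a2 window (44.8%, 1 CpG) that of Slc1a3. These matches describe letters only.

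Each of the 6 genes was found in a minority of cells. Glul reached 10 counts in 27 of 82 cells, Slc1a2 in 16, Atp1b2 in 15, Slc7a10 in 14, Slc1a3 in 12 and Slc38a3 in 10. Between 45 (Glul) and 67 (Slc38a3) cells had no count at all. For the genes other than Glul, 1 to 4 cells each held 10 to 99 counts and 6 to 9 cells each held 1000 counts or more. Glul had 12 cells at 10 to 99 counts and 10 cells at 1000 or more. The exact 95% binomial intervals of the shares of cells overlapped between neighbours in this order: Glul 32.9% (22.9 to 44.2), Slc1a2 19.5% (11.6 to 29.7), Atp1b2 18.3% (10.6 to 28.4), Slc7a10 17.1% (9.66 to 27.0), Slc1a3 14.6% (7.80 to 24.2) and Slc38a3 12.2% (6.01 to 21.3). These intervals cover counting error only.

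The heatmap of counts by cell shows where the counts lay. The 9 cells of neither class held 74.4% of the 268240 counts of the set. Their share was 84.7% for Atp1b2, 83.0% for Slc1a2, 78.2% for Slc1a3 and 65.0% for Slc7a10, but 37.1% for Slc38a3 and 29.1% for Glul. Slc38a3 had most of its counts (60.6%) in Enpp2-rich cells. Glul was spread over the classes, with 39.7% in Sox11 cells and 30.8% in Enpp2-rich cells. A single Sox11 cell, well B4, held 4858 Glul counts, and without it the shares were 20.6% and 40.6%. A few wells carried much of this: without the cell with the most counts of the set the share in cells of neither class was 66.5%, and without the top 2 cells 53.2%. All 6 genes reached 10 counts in a higher share of the cells of neither class than of all Enpp2-rich or all Sox11 cells, as did 21.2% of the 5793 genes at 10 or more counts in at least 5 cells. The gene set was picked with such values known, so nothing is read from this count. Within dataset A, which holds all cells of neither class, the order held for all genes but Slc38a3. Slc38a3 was there in 22.2% of the cells of neither class and in 35.7% of Enpp2-rich cells.

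**Figure D1:**
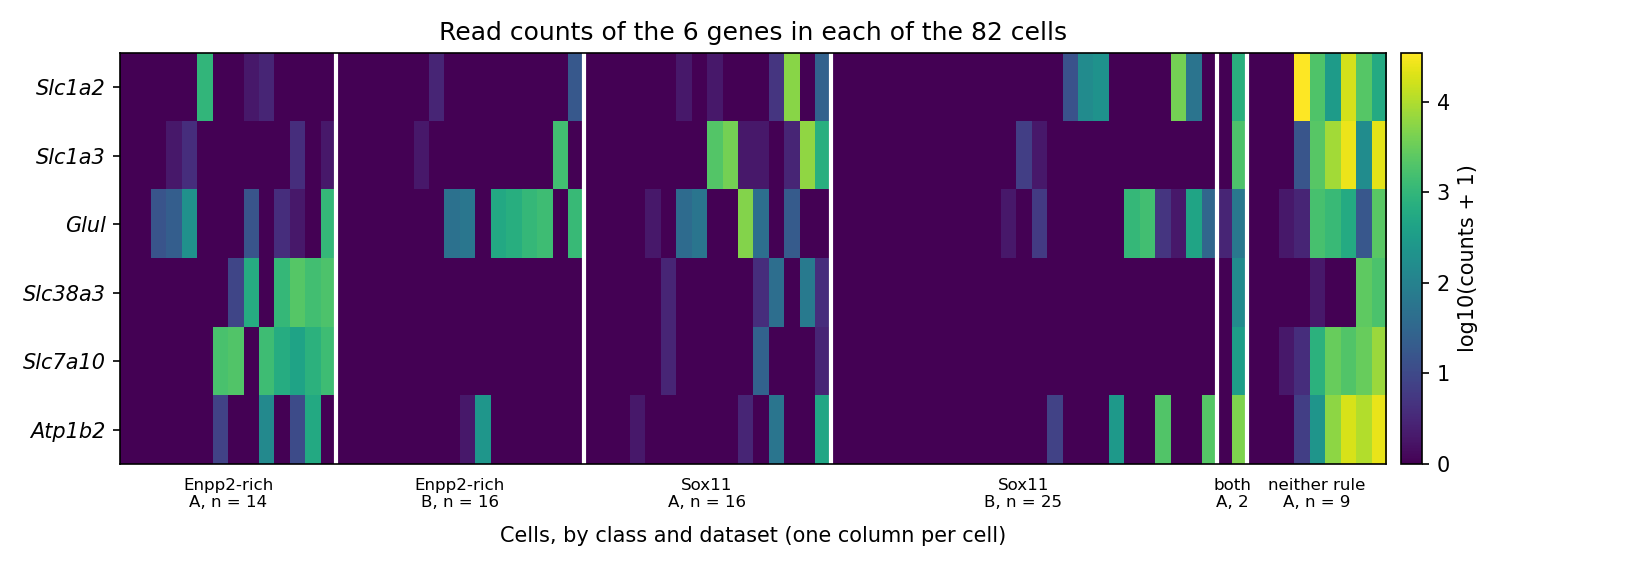
Counts of the 6 genes (rows) in each of the 82 cells (columns), as log10(counts + 1), with cells arranged by class and dataset and, within these, by how many of the genes reached 10 counts. The brightest block lies in cells of neither class, while Slc38a3 and Slc7a10 also fill columns of the Enpp2-rich cells of dataset A and are dark in all 41 cells of dataset B.

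The set was found nearly complete in 6 cells and sparse in all others. At 10 or more counts, 34 cells held none of the genes, 27 held 1, 11 held 2, 4 held 3, none held 4, 3 held 5 and 3 held 6. The 6 cells with 5 or 6 genes were all of dataset A (wells C6, E2, F3, F4, F6 and H2). Of these, 5 met neither class rule and 1, well F6, met both. In dataset B no cell held more than 2. The bar chart of genes per cell shows the gap at 4.

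**Figure D2:**
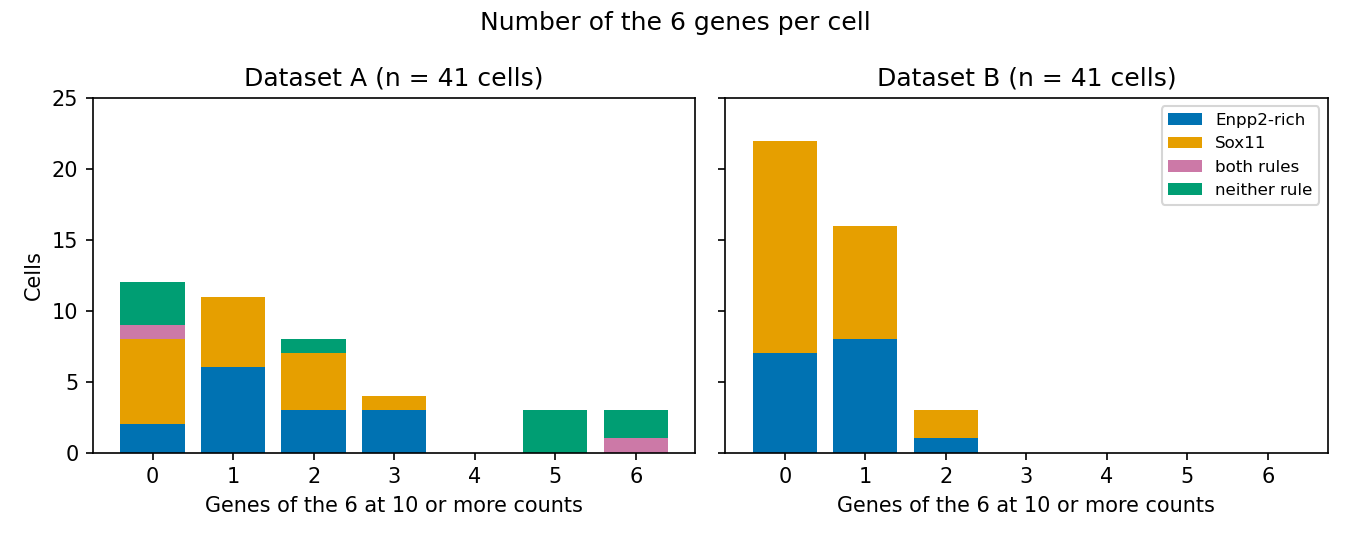
Number of cells (vertical axis) by how many of the 6 genes reached 10 counts (horizontal axis), for dataset A on the left and dataset B on the right, coloured by class. Dataset A has a separate group of 6 cells with 5 or 6 genes, and dataset B stops at 2.

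In these 6 cells the uptake genes were high but varied widely. Slc1a2 had 2197, 307, 1907, 599, 746 and 17187 counts in wells C6, E2, F3, F4, F6 and H2. Slc1a3 had 159, 7922, 2231, 22589, 1836 and 24815 counts in the same order. The ratio of the 2 glutamate transporters therefore turned over between wells, with more Slc1a2 than Slc1a3 in C6 and far less in E2 and F4. In CPM, the median was 1257 for Slc1a2 (217 to 8145) and 5933 for Slc1a3 (137 to 11760).

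Glul, the synthetase, had 16, 1187, 1650, 2412, 64 and 597 counts in these wells, from 13.7 to 3022 CPM. Slc7a10 had 3029, 3070, 813, 7170, 335 and 1990 counts. On the log2(CPM + 1) scale Slc7a10 was the least variable of the 6 genes across the 6 cells (SD 1.30), followed by Atp1b2 (1.71). Atp1b2 had 10512, 5768, 231, 24146, 4593 and 18256 counts, so that well F3 stood below the others. Slc38a3 was the gene missing from an otherwise full set, with 2615, 0, 1, 1811, 152 and 0 counts. The cells with no Slc38a3 (E2 and H2) had 1018230 and 2110161 counts in all, and C6 with the most had 1164788. F3 with 1 count was the shallowest of the 6 (546021) and F4 with 1811 counts the deepest (2757305). The part of depth in the missing Slc38a3 was not tested.

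Levels of different genes were compared per kilobase of exon, pooled over these 6 cells. Atp1b2 was highest at 1077 CPM per kb, followed by Slc1a3 at 465. Slc7a10 (189), Slc1a2 (187) and Glul (171) followed, and Slc38a3 stood at 56.4. The Slc1a2 value rested on well H2, and without it Slc1a2 was at 61.6 CPM per kb, below Slc38a3 at 74.3. Without well C6, Slc38a3 was at 27.9. Atp1b2 and Slc1a3 kept the first 2 places whichever of the 6 cells was left out. Exon length was taken as the union of all annotated exons, and the coverage along the transcripts was not tested.

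The 6 cells also carried the astroglia genes. They held 13 to 18 of the 20 genes of that list at 10 or more counts (16, 13, 13, 14, 18 and 18), with summed levels of 36044 to 87030 CPM. Enpp2-rich cells held 0 to 4 and Sox11 cells 0 to 10. Gja1, Gjb6, Itih3 and Bcan were at 10 or more counts in all 6. Gfap, an astrocyte filament gene, was at 10 or more counts in none of them, and only in 1 Sox11 cell of dataset B. Of the 9 genes analysed from a quiescent neural stem cell list, which shares Slc1a3 with the set, the 6 cells held 2 to 6, Slc1a3 included. Genes of this list were not particular to the 6 cells. Id2 and Vcam1 were each at 10 or more counts in 14 of 30 Enpp2-rich cells. The Enpp2-rich well H4 of plate P1 held 5 genes of the list without Slc1a3. Of the 48 cells in which at least 1 gene of the set reached 10 counts, the other 42 held at most 10 genes of the astroglia list. Well F7, a Sox11 cell and the shallowest of all, held 10. Where the name astroglial ends among the 48 cells was thus not settled.

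Well F6 differed from the other 5. It had Enpp2 at 1.93% of counts, Sox11 at 85 counts, 9 choroid plexus genes and 6 neuroblast genes at 10 or more counts, and a count for 3181 genes, against 1286 to 1537 genes in the other 5. It also had 16 counts of Penk, which the other 5 lacked. Without it and the second cell that met both rules, 5 cells held 4 or more of the genes. Whether this well held more than 1 cell was not tested.

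Another well of neither class, G1, held the highest Slc1a2 value of all cells with almost nothing else of the set. Slc1a2 stood at 34317 counts (10233 CPM), which was 50.4% of all Slc1a2 counts, beside 15 counts of Slc1a3, 2 of Glul, 0 of Slc38a3, 3 of Slc7a10 and 6 of Atp1b2. Its most abundant gene was Cst3, at 14.8% of counts. It held 2 of the 20 astroglia genes at 10 or more counts, Aldoc, a glycolytic enzyme enriched in astrocytes, at 57833 counts and Gjb6 at 11 counts. The well also held 37005 counts of Ctss from the microglia list and 15134 counts of Ppp1r1b from the neuron list. This well was singled out after its values were seen.

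Outside the 6 cells, 27 of the other 76 cells held 1 of the genes and 15 held 2 or 3. Of the 15 pairs of genes, 11 shared at least 1 of these 76 cells and 4 shared none. Among these cells Slc1a2 was at 10 or more counts in 10 and Slc7a10 in 8, with none in common. Slc1a3 was in 6 of these cells, with none shared with Slc7a10 and none with Glul. Slc1a2 and Slc38a3 shared none either. Slc38a3 and Slc7a10, the amino acid exporter and exchanger, shared 4 cells, the highest number of any pair, out of 7 with Slc38a3 and 8 with Slc7a10, and all 4 were Enpp2-rich cells of dataset A. Over all 82 cells they shared 7. Atp1b2 shared 3 of the 76 cells with Slc38a3 and 3 with Slc7a10, and Slc1a2 and Glul also shared 3. In so few cells, sharing none does not show that 2 genes avoid each other.

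**Figure D3:**
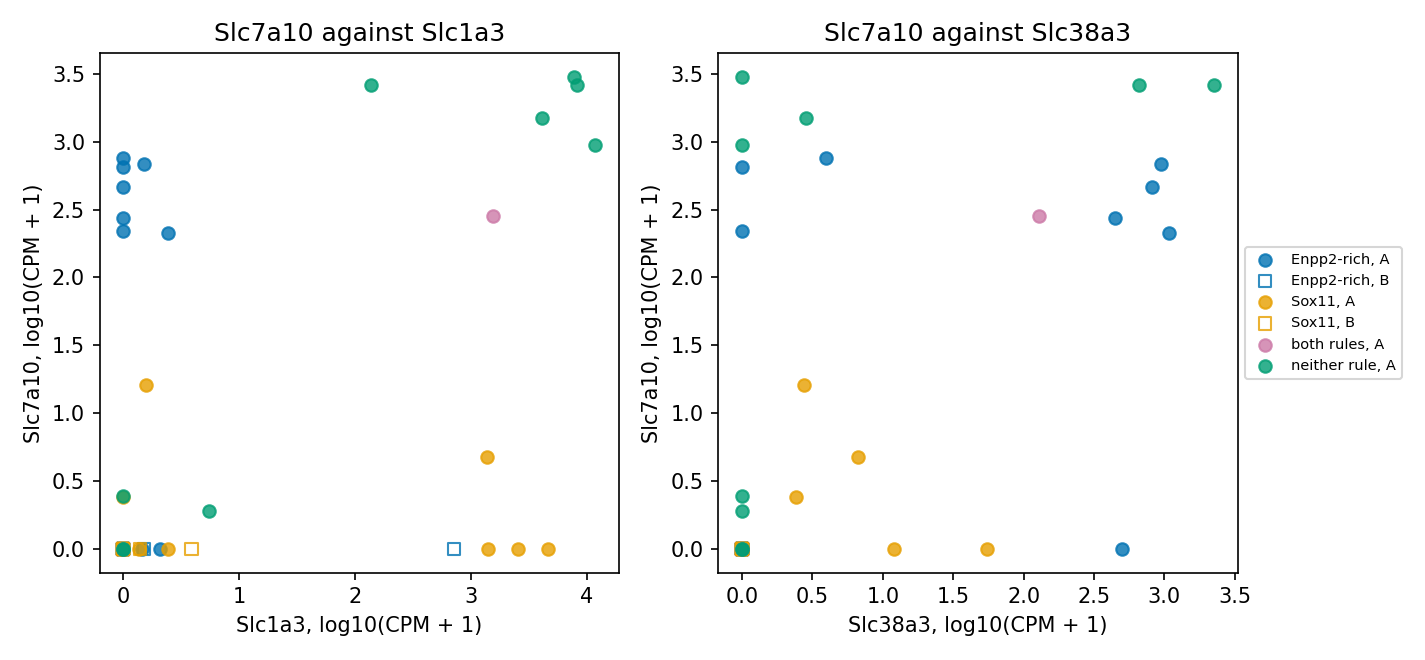
Slc7a10 against Slc1a3 (left) and against Slc38a3 (right) in each cell, as log10(CPM + 1), coloured by class, with filled circles for dataset A and open squares for dataset B. On the left, cells with both genes high are only those of neither class and 1 cell that met both rules, whereas on the right Enpp2-rich cells of dataset A lie high on both axes.

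Enpp2-rich cells of dataset A carried the 2 transporters without the uptake genes. Slc7a10 was at 10 or more counts in 7 of 14 (interval 23.0 to 77.0%). In those 7 cells it had 434, 632, 823, 1314, 1355, 1713 and 2018 counts, with nothing between 0 and 434 in the class. Slc38a3 was at 10 or more counts in 5 of 14 (interval 12.8 to 64.9%), with 637, 1032, 1450, 1887 and 2209 counts. Together, 8 of the 14 cells held one or both. In the same 14 cells Slc1a3 never exceeded 3 counts, and Slc1a2 reached 10 counts in 1 cell (977 counts), which lacked both transporters.

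These 8 cells were not cells of the astroglia type by their markers. They held 2 to 4 of the 20 astroglia genes at 10 or more counts, against 1 to 4 in the other 6 Enpp2-rich cells of dataset A, and 10 to 13 of 14 choroid plexus genes, against 9 to 13. Gja1, Gjb6 and Aqp4 reached 10 counts in no Enpp2-rich cell. Summed choroid plexus genes took 359602 to 720620 CPM in the 8 cells and 214590 to 508934 CPM in the other 6, so the ranges overlapped. Pooled over the Enpp2-rich cells of dataset A, Slc7a10 stood at 225 CPM and Slc38a3 at 196 CPM, and in the cells of neither class at 993 and 274 CPM. The value of 274 CPM came from 2 of 9 cells, and without well C6 it was 121 CPM, below that of the Enpp2-rich cells.

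In dataset B neither transporter had a single count. Slc38a3 and Slc7a10 were at 0 in all 41 cells, which allows a share of up to 7.32% of cells, and in all 16 Enpp2-rich cells, which allows up to 18.8%. Those 16 cells had 6 to 11 choroid plexus genes at 10 or more counts and a median depth of 2156814 counts, against 2267700 in those of dataset A. At 10 or more counts in at least 5 Enpp2-rich cells of dataset A and in none of dataset B were 0.535% of 5793 genes, 31 genes with Slc38a3 and Slc7a10 among them. At 10 or more counts in at least 10 cells of dataset A and no cell of dataset B were 0.138%, which was 8 genes. The other 6 were Gm35202, Frem1, Mgst1, Mia, Acsl6 and Xist. After every cell was thinned to 500000 counts, Slc7a10 was at 10 or more counts in 13 cells and Slc38a3 in 9, all of dataset A.

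The datasets differed in more than the CD11b gate. Xist, made from the inactive X chromosome of females, was at 10 or more counts in 15 cells of dataset A and had no count in dataset B. The Y-linked gene Ddx3y was at 10 or more counts in 13 cells of dataset B and had no count in dataset A. Xist reached 10 counts in none of the 14 Enpp2-rich cells of dataset A, and in 5 of the 6 cells with 5 or 6 genes of the set. The gate, the plates and the animals go with the dataset and cannot be told apart. Itgam, which encodes CD11b, had 6 counts over all of dataset B.

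All 6 genes were at 10 or more counts in more cells of dataset A than of dataset B, as were 33.4% of the 5793 genes. The counts of cells were 10 and 6 for Slc1a2, 11 and 1 for Slc1a3, 16 and 11 for Glul, 10 and 0 for Slc38a3, 14 and 0 for Slc7a10, and 11 and 4 for Atp1b2. For Glul the order turned with the threshold and depth: at 50 counts 9 cells stood in each dataset, and after thinning 9 stood in dataset A and 11 in dataset B. Without the 6 cells that held 5 or 6 genes, Slc1a2 (4 and 6) and Glul (10 and 11) were in fewer cells of dataset A. Slc1a3, Slc38a3, Slc7a10 and Atp1b2 remained in more, with 5 and 1, 7 and 0, 8 and 0, and 5 and 4 cells. The 6 cells left out were all of dataset A. The share of all genes was not taken without them, so nothing is read from these counts.

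**Figure D4:**
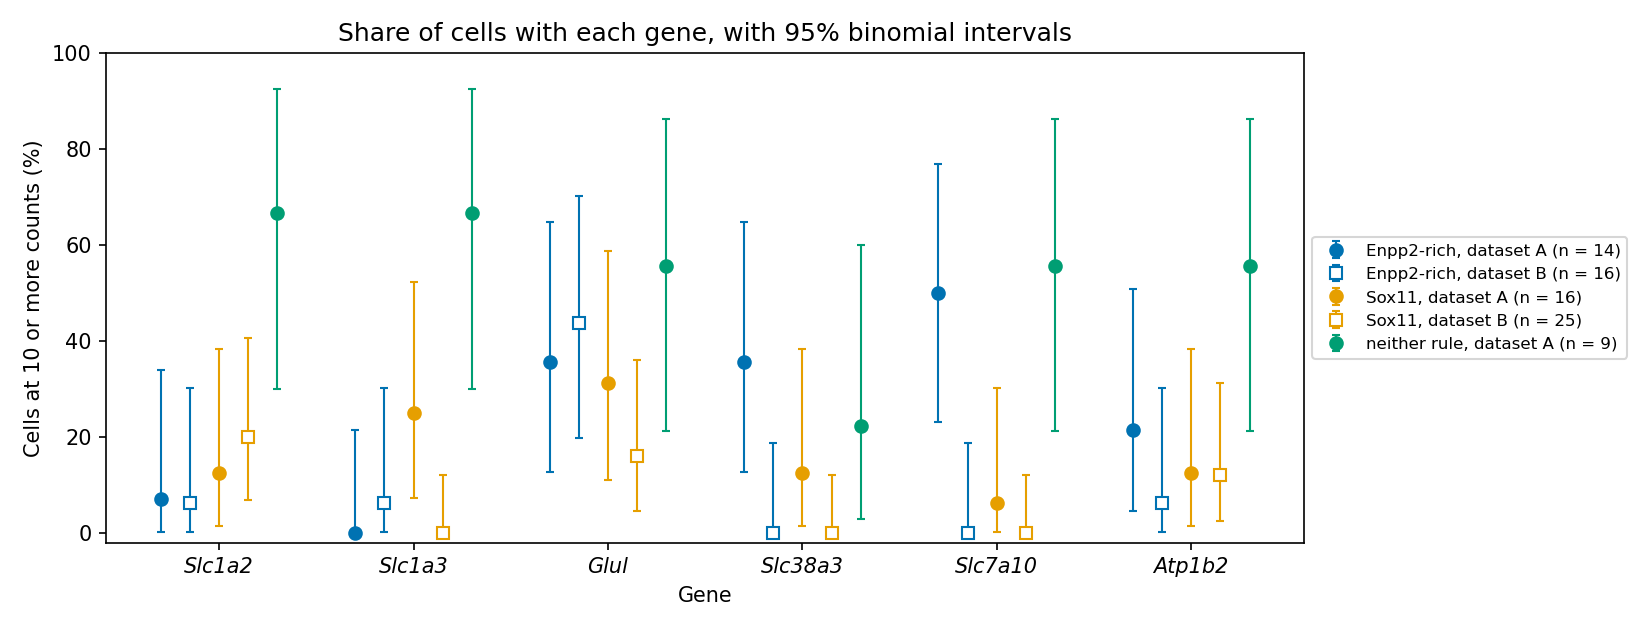
Share of cells at 10 or more counts (vertical axis, percent) for each gene, by class and dataset, with exact 95% binomial intervals as bars and, for a share of 0, the limit that 3 cells would give. Slc38a3 and Slc7a10 are at 0 in both classes of dataset B, and the cells of neither class, all in dataset A, have the highest point for all genes but Slc38a3.

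Glul was found in every class of both datasets, as were Slc1a2 and Atp1b2, and in more cells than either. In Enpp2-rich cells of dataset B it was at 10 or more counts in 7 of 16 cells, with 49, 60, 547, 707, 1067, 1154 and 1316 counts. In those of dataset A it was in 5 of 14, with 14, 14, 22, 195 and 1059 counts. The pooled level was 142 CPM in dataset B and 35.4 CPM in dataset A, where 1 cell held 81.0% of the counts. After thinning, 2 of 14 and 7 of 16 cells held it. The sets of cells overlapped in level, since the highest value of dataset A lay among the values of dataset B.

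Other members in Enpp2-rich cells of dataset B were single cells. Slc1a3 had 1474 counts in well C8 of plate PL4, Atp1b2 had 242 counts in 1 cell, and Slc1a2 had 17 counts in 1 cell. In dataset A, Atp1b2 had 10, 137 and 566 counts in 3 Enpp2-rich cells, each of which also held Slc7a10.

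Of the 41 Sox11 cells, 13 held 1 of the genes at 10 or more counts and 7 held 2 or 3. In dataset B, Slc1a2 was at 10 or more counts in 5 of 25 (interval 6.83 to 40.7%), with 13, 55, 156, 207 and 3910 counts, and in dataset A in 2 of 16, with 26 and 5432 counts. These cells were on plates P1 and P2 of dataset B. One well in each dataset therefore held most of the Slc1a2 of the class: 90.1% of the counts in dataset B and 99.4% in dataset A.

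Slc1a3 was at 10 or more counts in 4 of 16 Sox11 cells of dataset A (728, 2089, 3818 and 6131 counts) and in 0 of 25 of dataset B, which allows a share of up to 12%. Of these 4 cells, well F7 held 10 of the 20 astroglia genes at 10 or more counts and was the shallowest cell of all, and the other 3 held 1 or 2. In the 3 cells 10, 11 and 16 of the 18 neuroblast genes were at 10 or more counts. High Slc1a3 was thus found in wells with many neuroblast genes and few other astroglia genes.

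Glul in Sox11 cells reached 4858 counts in 1 cell of dataset A and 1466, 1033, 448 and 31 counts in 4 cells of dataset B. Its other 4 cells in dataset A held 19 to 58 counts. Atp1b2 had 286, 2049 and 2182 counts in 3 cells of dataset B and 56 and 489 in 2 of dataset A. Slc38a3 (43 and 72 counts) and Slc7a10 (26 counts) stayed low in this class. The 43 counts of Slc38a3 and the 56 of Atp1b2 came from well H6, whose counts were mostly Ttr.

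The cells with most of the set were picked for genes that include Atp1b2, so its presence in them is no result. Atp1b1 and Atp1b3, which encode other beta subunits than Atp1b2, were at 10 or more counts in none of the 6 cells with 5 or 6 genes of the set. Atp1b1 was in 23 of 30 Enpp2-rich cells and 16 of 41 Sox11 cells, with pooled levels of 677 and 356 CPM, against 0.12 CPM in the cells of neither class. In the 9 cells that held Atp1b2 outside the 6, Atp1b1 was present in 7.

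Other genes of the pump and of ion handling differed between the classes in the share of cells. Fxyd1, a regulator of the pump, was in 29 of 30 Enpp2-rich cells and in 5 of the 6 cells with most of the set. Fxyd6 was in 22 of 41 Sox11 cells and in no cell of any other class. Slc4a4, a sodium bicarbonate cotransporter, was in 5 of the 6 cells and Hepacam, a glial adhesion protein, in 4. Slc4a4 and Hepacam were at 10 or more counts in no Enpp2-rich cell.

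Of 11 other carriers of glutamate, glutamine and related amino acids with a row, 4 were at 10 or more counts in at least 5 cells, 4 in 1 to 4 cells and 3 in none. Slc38a1, through which neurons take up glutamine, was in 14 of 41 Sox11 cells, 2 Enpp2-rich cells and 1 cell of neither class. Slc38a2, a related carrier, was in 11 Sox11 cells and no other cell. Neither was in any of the 6 cells with most of the set. Slc38a9, an amino acid sensor of the lysosome, was in 7 cells over the classes. Of the 4 carriers in 1 to 4 cells, Slc1a4 was in 3 cells and Slc7a5 in 1, all among the 6. Slc38a7 was in 1 Sox11 cell, and Slc7a11 was in 1 Sox11 cell and 1 of the 6. Slc1a4 and Slc7a5 were first picked because of their values. Slc3a2 encodes the heavy chain with which Slc7a10 forms a working transporter, and it was at 10 or more counts in 10 of the 14 Slc7a10 cells, in 5 of the 6 cells with most of the set and in 25 cells in all.

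Among the enzymes, those of GABA synthesis were found in Sox11 cells. Gad1 and Gad2, which make GABA from glutamate, were in 28 and 23 of the 41 Sox11 cells, in no Enpp2-rich cell and in no cell of neither class. Of the 7 Sox11 cells with Slc1a2, 5 held Gad1 and 4 held Gad2, and of the 4 with Slc1a3, 2 held Gad1 and 2 held Gad2. Glud1, glutamate dehydrogenase, was in 5 cells. The aminotransferases Got1 and Got2 were in 7 and 12 of 30 Enpp2-rich cells and in none of the 6 cells with most of the set. Oat, ornithine aminotransferase, was in 11 cells, and Abat, which breaks down GABA, in 6.

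Genes of a receptor and of other transmitter uptake were also followed. Gria2, an AMPA receptor subunit, was in all 6 cells with most of the set and in 25 of 41 Sox11 cells. Slc6a11, a GABA transporter of astrocytes, was in 5 of the 6 and in no other cell. Neither gene reached 10 counts in an Enpp2-rich cell.

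**Figure D5:**
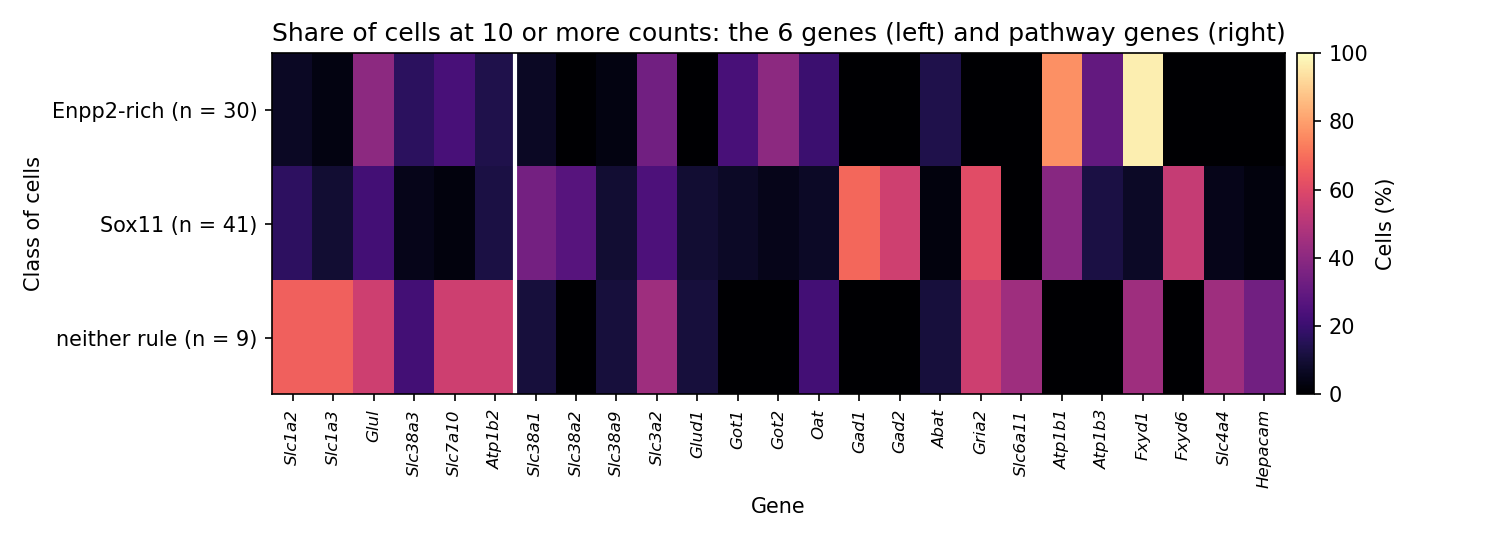
Share of cells at 10 or more counts (colour, percent) for the 6 genes, left of the white line, and for the pathway genes described here, right of it, in Enpp2-rich cells, Sox11 cells and cells of neither class. Gad1, Gad2 and Fxyd6 are brightest in Sox11 cells, Fxyd1 and Atp1b1 in Enpp2-rich cells, and Slc1a2 and Slc1a3 in cells of neither class.

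The genes most like the set were ranked by Pearson correlation of log2(CPM + 1) with the mean of the 6 genes, a description over cells that share plates and depth. The 5 highest over 82 cells were Gja1 (0.90) and Gjb6 (0.88), which encode the connexins of astrocyte gap junctions, Itih3 (0.90), the extracellular matrix gene Bcan (0.88) and Etnppl (0.87), which encodes an enzyme that breaks down phosphoethanolamine. Within dataset A the values were 0.89 to 0.92. Over the 76 cells other than the 6, they fell to 0.27 to 0.45. The 5 genes were each at 10 or more counts in 6 to 8 cells, with all 6 cells among them, so the likeness rests on those cells.

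Single genes had different neighbours. Slc1a2, Slc1a3 and Atp1b2 shared Itih3 among their 3 nearest genes, and Slc7a10 had Etnppl, Gjb6 and Gja1. Slc38a3 was nearest to Gramd1b (0.75), which encodes a sterol transfer protein, Slc7a10 (0.63) and Lgals3bp (0.62). These values were 0.68, 0.63 and 0.64 over the 76 cells without the 6. Of the 10 Slc38a3 cells, 8 held Lgals3bp at 10 or more counts and 5 held Gramd1b. Over all 82 cells, Lgals3bp was in 15 cells and Gramd1b in 6. Lgals3bp was in 9 of the 14 Enpp2-rich cells of dataset A, of which 5 held Slc38a3. Glul had the weakest neighbours, with Bhlhe41 at 0.52.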

How the data were processed

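The authors deposited 1 table of raw read counts, with 15305 gene rows and 82 cells. Its values are whole numbers, and 1997 rows are at 0 in all cells. Per the labels' protocols, cells were sorted singly, reverse-transcribed from oligo dT with template switching and preamplified by PCR. No molecular identifiers are mentioned, so reads are not independent molecules and intervals cover counting error only. The submitters' processing notes name FastQC 0.12.1, STAR 2.7.10b, featureCounts and Subread 2.1.1 and the builds GRCm39 and mm10, without roles.

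Counts were used as deposited. A gene counted as present in a cell at 10 or more counts. Levels are given as counts per 1000000 counts of a cell or a pool of cells (CPM), with a pseudocount of 1 on log scales. Shares have exact (Clopper-Pearson) 95% intervals, and a share of 0 has the limit given by 3 cells. Cells were also thinned to 500000 counts, and none was shallower. No cell was removed and no doublet caller was run. The counting script was checked on simulated data. Tools were Python 3.11.15, numpy 2.4.6, pandas 2.3.3, scipy 1.17.1 and matplotlib 3.10.9.

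The 6 genes and the 13 gene lists were chosen with earlier results of these data known. The lists, beside the 6 genes, were 4 pathway lists and 9 lists of markers, of astroglia, quiescent neural stem cells, neuroblasts, choroid plexus epithelium, ependymal cells, microglia, oligodendrocyte lineage, neurons and vessels. Named from the pathway lists were genes at 10 or more counts in at least 5 cells, some of which are not reported here, and from all genes the 5 most like the mean of the set and the 3 most like each gene. Genes without a row were not analysed here.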

Additional observations from a re-analysis of the deposited data

How the results depend on the processing

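The number of cells with 4 or more of the 6 genes was 6 at thresholds of 5, 10 and 50 counts, at 10 CPM, after thinning and without the deepest cell. It was 11 at a threshold of 1 count and 5 without the cells that met both class rules. The share of the set's counts in cells of neither class, 74.4%, was 74.8% with an Enpp2 threshold of 2%, 67.5% with a Sox11 threshold of 1 count, 72.3% as a sum of CPM, 66.5% without the cell with the most counts of the set, 53.2% without the top 2 cells and 76.6% with the cells of both rules left out. The last 2, the Glul shares without well B4 and the levels per kilobase without single wells were chosen after seeing the data. It kept 74.4% with an Enpp2 threshold of 0.5% or a Sox11 threshold of 50 counts. Of the 5 genes most like the set, 2 were among the 5 by Spearman correlation, 4 after thinning and 2 to 4 by overlap of cells, where 5 genes were tied for the last places. Pooled levels of the classes rest on few cells. Of 108 alternative values, by medians or means over cells or without the top cell, 87 lay outside the counting interval of the pooled level. That interval treats each read as independent and is narrow at this depth, so the 87 do not measure how far a level rests on single cells. No paired analysis was possible because the cells carry no replicate numbers and each gate was sorted once. The number of cells limits what an absence shows: 0 of 16 cells allows a share of up to 18.8%. Ependymal, microglia, oligodendrocyte-lineage, neuron and vascular lists had medians of 0 to 1 gene in the 3 classes.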
